A study of Mus musculus with 27 samples.

Results

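Collagens, laminins and integrins are the genes by which a cell builds the matrix around it and holds on to it. They were taken here as every gene whose symbol is that of a collagen chain (Col, a type number, a, a chain number), a laminin α, β or γ chain (Lama, Lamb, Lamc) or an integrin α or β subunit (Itga, Itgb), which gave 81 of the 23420 genes in the deposited tables. There were 44 collagens, 11 laminins and 26 integrins. The rule used the symbols only and no measured value, though it was set with earlier results of these data known. The samples were B16 mouse melanoma cells in 3 lines: parental B16, and clones 2 and 9, each a single clone in which a 3xHA tag was placed on the endogenous Tbx2. Clone 2 was described as seeming to keep some Tbx2 without the tag. In each line, cells transfected for 48 h with siRNA against Tbx2 were compared with cells transfected for 48 h with a control siRNA, with 3 samples per condition and 18 transfected samples in all. The 9 untransfected samples were not analysed here. For these genes the comparison asks which matrix and adhesion genes change when Tbx2, a T-box transcription factor of melanocytes and melanoma, is depleted.

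Collagens are trimers of 3 chains wound into a helix, and a chain that lacks its partners is not secreted. Type IV collagen forms the sheets of basement membranes together with the laminins, which are trimers of an α, a β and a γ chain. Integrins are dimers of an α and a β subunit that span the cell surface, bind these proteins outside the cell and connect to actin through adaptors inside it. Melanocytes sit on a basement membrane, and melanoma cells cross one when they invade.

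The values come from the authors' deposited tables, which hold for each gene a mean normalized count, a log2 fold change of Tbx2 siRNA over control siRNA, its standard error (SE) and an adjusted p from a Wald test in DESeq2. They hold no value for a single library, so values by sample cannot be shown, library depth is unknown, and the spread between samples shows only in the SE. The mean normalized count of a gene was the same in the tables of all 3 lines, so it is a mean over more than 1 line, and the sources do not state which libraries entered the fit. It is given as the amount of data behind a gene. It is not corrected for transcript length and was not used to rank genes by level. A gene is called up or down where the adjusted p over the table is under 0.05. The 3 samples of a condition were described in the study's methods as biological replicates. In these bulk samples, fewer cells of a type and less RNA per cell cannot be told apart.

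Tbx2 itself had log2 fold changes of −2.96 (SE 0.22) in parental cells, −2.26 (SE 0.21) in clone 2 and −2.20 (SE 0.23) in clone 9. All 10 melanocyte and melanoma markers examined were present, with a lowest mean normalized count of 82.8 and a sum of 89400. Markers of other cell types were sparse. The 10 fibroblast markers summed to 87.8, of which 3 are collagens of the set (Col1a1, Col1a2 and Col3a1), Dcn was at 0.0728 and Lum at 0. The 5 endothelial markers summed to 12.3, the 6 leukocyte markers, with the integrin Itgam among them, to 7.68 and the 4 keratinocyte markers to 3.87. Vwf, the endothelial clotting factor, was called up in parental cells and clone 2, and Postn and Cd68 in clone 9, at means of 9.59, 7.42 and 7.09 (chosen after their values were seen). These sums are over conditions, no value exists for a single group, and their part in the results was not tested. The median log2 fold change of the 7698 genes with a mean of 50 or more lay between −0.01 and 0.00 in the 3 lines.

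Number 06 of the supplement's list of Tbx2 siRNAs, taken here as the siRNA of the parental experiment, is shown first. Its guide strand can also pair with other mRNAs through its seed, bases 2 to 8. The tables of all 3 lines name the siRNA alike, as siTbx2a, and no number was found for the clones in the labels or methods. Seed sites, the 7 bases AAATTTC, were searched on the transcript strand in the 3′ UTRs of the reference annotation (GRCm38). In the guide the capitals mark the seed, and in the targets, written 5′ to 3′ on the gene's strand, they mark the bases that pair with it.
siTbx2 number 06, antisense: aGAAAUUUgcaucaaaucc
Tbx2, chr11:85841232-85841250, plus strand: ggatttgatgcAAATTTCt
Col4a4, chr1:82449292-82449310, minus strand: tgagttctgttAAATTTCc
Col8a1, chr16:57624884-57624902, minus strand: taagttaaaccAAATTTCa
Itga4, chr2:79331062-79331080, plus strand: atattaacccaAAATTTCc
Itga1, chr13:114955196-114955214, minus strand: aaaaaatacacAAATTTCc
Itga10, chr3:96663789-96663807, plus strand: acttgatgctaAAATTTCc

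The Tbx2 site lies in exon 7 of 7 and pairs at 19 of 19 positions. Among the 40 collagens, laminins and integrins with an adjusted p in parental cells, 5 had a seed site in the 3′ UTR, which is 12.5%, against 16.4% of 10529 genes. Itga4 had 3 such sites, of which the first is shown, and the others had 1 each. Of the 5, Col4a4 was the 1 gene called in any line. Its site lies in exon 48 of 48 and pairs with the guide at 11 of 19 positions. The other genes that fell, Col16a1, Lamb2 and Col9a1, had no seed site, and neither did any gene of the set that rose. Among all genes, those with a site were called down at 26.8%, 23.9% and 24.6% in parental cells, clone 2 and clone 9, against 16.9%, 13% and 13.4% of those without one. Genes with and without a site were not matched for 3′ UTR length. The part of pairing with the guide in the fall of Col4a4 was not tested.

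Tbx2 siRNA changed a minority of these genes. In parental cells 8 of the 40 tested rose and 4 fell, which is 20% and 10%, against 18.5% and 18% of all genes tested. In clone 2, 4 of 45 rose and 3 fell (8.89% and 6.67%), against 15% and 14.2% of all genes. In clone 9, 5 of 45 rose and 3 fell (11.1% and 6.67%), against 13.4% and 14.7%. The share that rose was thus near the background in parental cells and clone 9 and below it in clone 2, and the share that fell was below it in each line. The median log2 fold change of those tested was 0.26, 0.31 and 0.24 in parental cells, clone 2 and clone 9, against 0.02, 0.03 and 0.03 over all genes tested, which is a description only. Low counts enter this comparison, since the median mean normalized count of the 45 genes tested in at least 1 line was 21.1. Among the 14 with a mean of 50 or more, 6, 3 and 4 rose in parental cells, clone 2 and clone 9, or 42.9%, 21.4% and 28.6%, against 21%, 18.1% and 15.6% of all genes at that level. In each line 2 of these 14 fell, or 14.3%, against 23.3%, 19.1% and 20.6% of all genes.

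**Figure D1:**
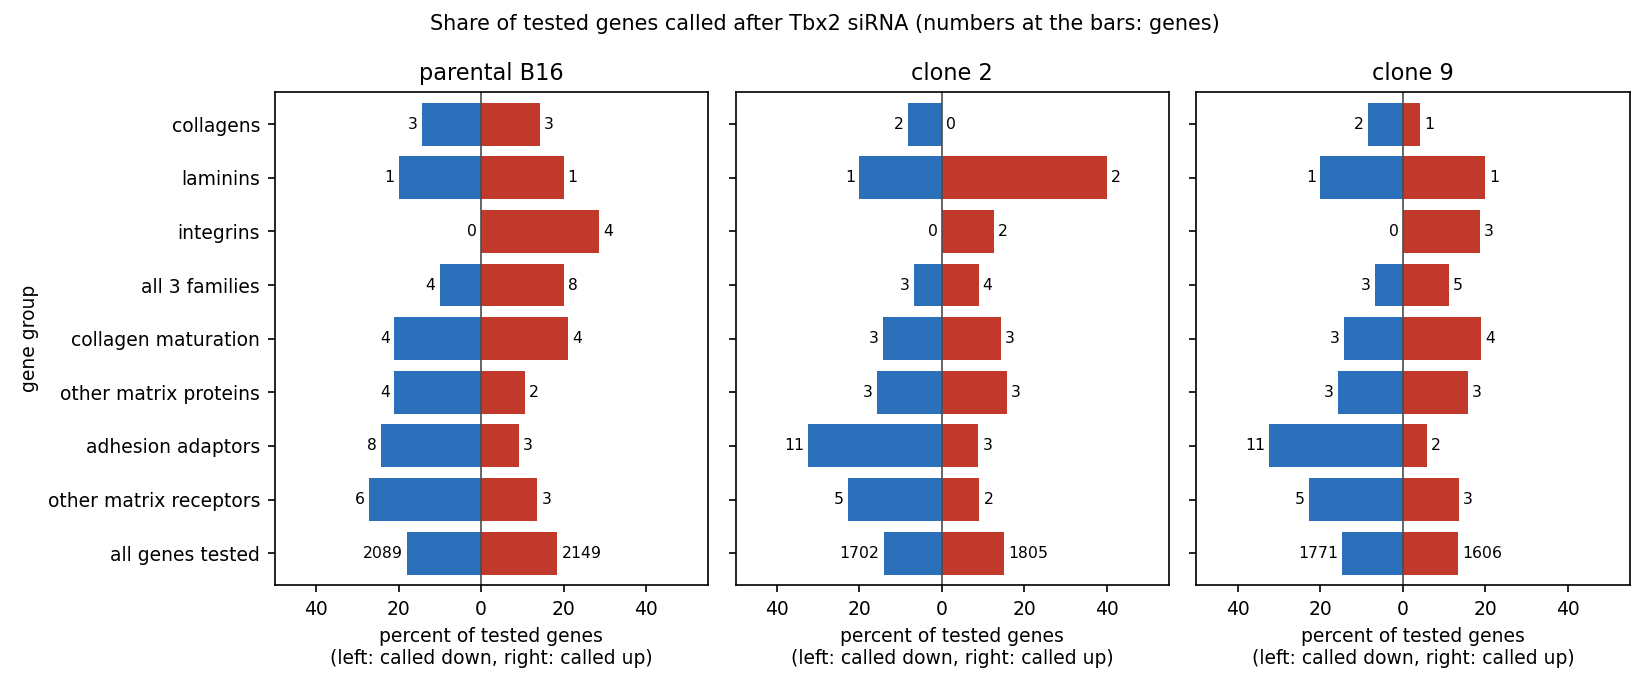
Percent of tested genes called up (right of 0) and called down (left of 0) after Tbx2 siRNA in parental B16, clone 2 and clone 9, for the 3 families, for all of them together, for 4 further lists of matrix and adhesion genes and for all genes tested, with the number of genes at each bar. No integrin was called down in any line, of 14, 16 and 16 tested. Of the adhesion adaptors, 8, 11 and 11 were called down (24.2%, 32.4% and 32.4% of those tested, against 18%, 14.2% and 14.7% of all genes). Most adaptors tested had a mean of 50 or more, and of all genes at that level 23.3%, 19.1% and 20.6% were called down.

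Of the 81 genes, 14 were called in at least 1 line, 31 were tested and not called, and 36 had no adjusted p in any table. Itgb3, Itga9 and Lamc1 rose in all 3 lines, and Col16a1 and Lamb2 fell in all 3. Itgb5 rose in 2 lines. Col9a1 and Col4a4 fell in 2. The remaining 6, Itgb1, Col4a1, Col4a2, Col9a2, Col15a1 and Lama5, rose in 1 line each. No gene was called up in one line and down in another. Among the 14 the estimates had the same sign in the 3 lines for 11, the exceptions being Col4a2, Col4a4 and Lama5.

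**Figure D2:**
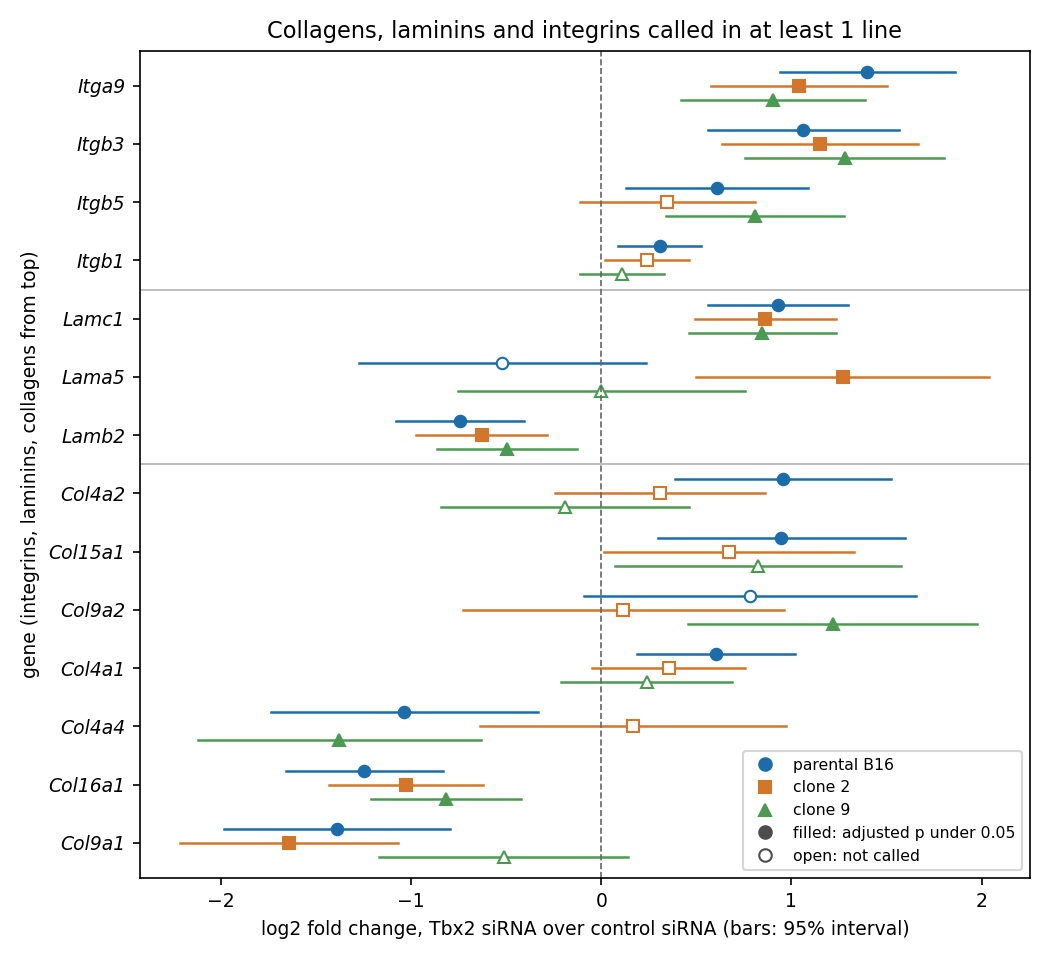
Log2 fold change of Tbx2 siRNA over control siRNA for the 14 genes called in at least 1 line, with 95% intervals from the deposited standard errors, in parental B16 (circles), clone 2 (squares) and clone 9 (triangles). Filled symbols have an adjusted p under 0.05, and the intervals of Itgb3, Itga9, Lamc1, Col16a1 and Lamb2 stay on one side of 0 in every line.

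Among the integrins, 4 rose and none fell of 14 tested in parental cells. In clone 2 it was 2 of 16 and in clone 9 it was 3 of 16, again with no fall. Of all genes tested, 18%, 14.2% and 14.7% fell in parental cells, clone 2 and clone 9. Only 7 integrins had a mean of 50 or more, and the absence of falls among so few genes is a description only. The share of integrins that rose was 28.6%, 12.5% and 18.8% in parental cells, clone 2 and clone 9, against 18.5%, 15% and 13.4% of all genes. These shares rest on 2 to 4 genes per line and do not set integrins apart from all genes. By Benjamini-Hochberg adjustment in the DESeq2 tables no integrin was called down, and without adjustment the only negative estimate with a p under 0.05 in any line was that of Itgb4 in clone 2, at a mean of 4.83 (named after its value was seen). Itgb3 encodes β3, which pairs with αv as a receptor for vitronectin and fibronectin and is known in human melanoma for its rise with invasive growth. It is on chr11:104608000-104670476 (GRCm38, plus strand). Its log2 fold change was 1.06 (SE 0.26, adjusted p = 2.07e-04) in parental cells, 1.15 (SE 0.26, adjusted p = 1.23e-04) in clone 2 and 1.28 (SE 0.27, adjusted p = 2.1e-05) in clone 9, or 2.09-, 2.22- and 2.43-fold, at a mean normalized count of 143.6. The 3 estimates lay within 1 SE of each other.

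Itga9 encodes α9, a partner of β1 that binds tenascin-C and other matrix ligands. Its log2 fold change was 1.40 (SE 0.23) in parental cells, 1.04 (SE 0.24) in clone 2 and 0.90 (SE 0.25) in clone 9, or 2.64-, 2.06- and 1.87-fold, with a largest adjusted p of 0.00169 and a mean of 116.2. It had the largest estimated rise of all called genes of the set in parental cells. The gene lies on chr9:118606690-118901003 (plus strand), and the annotation places the antisense gene Gm2415 over its last 2 kb. The sources used here do not state whether reads were counted by strand, so reads of Itga9 and Gm2415 may be mixed.

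The other β subunits that were called moved less. Itgb5, whose product β5 pairs with αv as a vitronectin receptor, rose 1.53-fold in parental cells (log2 fold change 0.61, SE 0.24, adjusted p = 0.0365) and 1.75-fold in clone 9 (0.81, SE 0.24, adjusted p = 0.00445). In clone 2 its estimate was 0.35 (SE 0.23, adjusted p = 0.277). The call in parental cells was lost when the adjustment covered all genes that have a p. Itgb1 encodes β1, which pairs with most α subunits and had the highest count of the set, 1160. It rose 1.24-fold in parental cells (0.31, SE 0.11, adjusted p = 0.0189), and its values of 0.24 in clone 2 and 0.11 in clone 9 did not pass.

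The α partners of the β subunits above mostly did not pass the test. Itgav, the αv subunit with which β3 and β5 pair, had log2 fold changes of −0.21 (95% interval −0.50 to 0.08) in parental cells, −0.28 (−0.56 to 0.01) in clone 2 and −0.14 (−0.45 to 0.17) in clone 9, at a mean of 202.9. These intervals leave out a rise as large as that of Itgb3 in any line. Itga4, the α4 subunit that pairs with β1 and binds fibronectin and VCAM1, had 0.13, −0.16 and 0.23 in the same order, with its 3 seed sites. Itga6, the α6 subunit of laminin receptors, had −0.17, 0.01 and −0.39. Itga5, the α5 subunit of the classical fibronectin receptor, had 0.77 (SE 0.37) in parental cells, 0.54 (SE 0.39) in clone 2 and 0.50 (SE 0.40) in clone 9, none of which was called at a mean of 19.6.

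Among the laminins only 5 of the 11 chains were tested. Lamc1, the γ1 chain shared by most laminins, rose in each line with nearly the same estimate. Its log2 fold change was 0.93 (SE 0.19) in parental cells, 0.86 (SE 0.19) in clone 2 and 0.85 (SE 0.20) in clone 9, or 1.91-, 1.82- and 1.80-fold, with a largest adjusted p of 1.83e-04 and a mean of 133.5. It lies on chr1:153218922-153332786 (minus strand). Lamb2, the β2 chain found in the basement membranes of glomerulus and neuromuscular junction, fell in each line. It had −0.74 (SE 0.17, adjusted p = 1.08e-04) in parental cells, −0.63 (SE 0.18, adjusted p = 0.00221) in clone 2 and −0.49 (SE 0.19, adjusted p = 0.0327) in clone 9, or 0.598, 0.647 and 0.71 of the control level. The call in clone 9 was lost under that wider adjustment. Lamb2 is on chr9:108479736-108490530 (plus strand).

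The β chain that alternates with β2 in these trimers, Lamb1, was not called in any line. Its log2 fold change was −0.13 (SE 0.24) in parental cells, 0.15 (SE 0.24) in clone 2 and −0.48 (SE 0.24) in clone 9, where the unadjusted p was 0.0472 and the adjusted p 0.129. Lama4, the α4 chain of vessel and muscle laminins, stayed within 0.14 of 0 on the log2 scale in the 3 lines at a mean of 130.4. Lama5, the α5 chain of laminins of most adult basement membranes, differed most in sign. It rose 2.41-fold in clone 2 (1.27, SE 0.39, adjusted p = 0.00662), and had −0.52 (SE 0.39) in parental cells and 0.00 (SE 0.39) in clone 9 at a mean of 20.9. The γ1 chain rose while the β2 chain fell in the same cells, and no α chain was called in more than 1 line.

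Type XVI collagen was called in every line. Col16a1 encodes a fibril-associated collagen with interrupted triple helices, which links fibrils and cell surfaces. Its log2 fold change was −1.25 (SE 0.21, adjusted p = 5.2e-08) in parental cells, −1.03 (SE 0.21, adjusted p = 1.11e-05) in clone 2 and −0.82 (SE 0.20, adjusted p = 4.35e-04) in clone 9. The level after Tbx2 siRNA was 0.421, 0.491 and 0.568 of that after control siRNA. With a mean of 205.1 it had the highest count of any collagen in the tables, and it lies on chr4:130047840-130099283 (plus strand).

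Type IX collagen, another fibril-associated collagen, is a trimer of the chains of Col9a1, Col9a2 and Col9a3 and is best known from cartilage. Col9a1 fell to 0.382 of the control level in parental cells (−1.39, SE 0.30) and to 0.321 in clone 2 (−1.64, SE 0.29), with adjusted p of 3.84e-05 and 4.51e-07. In clone 9 it had −0.51 (SE 0.33, adjusted p = 0.266). Col9a2 had estimates on the other side of 0: it rose 2.33-fold in clone 9 (1.22, SE 0.39, adjusted p = 0.00905), with 0.78 (SE 0.45) in parental cells and 0.12 (SE 0.43) in clone 2. Col9a3 had −1.05, −0.99 and −1.51 in parental cells, clone 2 and clone 9 and was not called, with SEs of 0.82 to 0.90 at a mean of 5.15. In no line was more than 1 chain of this trimer called, and the estimates of Col9a1 and Col9a3 were below 0 in all 3 lines. The means of Col9a1 and Col9a2 were 32.5 and 22.2.

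The type IV chains are encoded as pairs of neighbours that face away from each other. Col4a1 and Col4a2, the chains of the most common basement membrane collagen, have annotated start sites on opposite strands of chromosome 8 that overlap by 22 bases, so that 1 stretch of DNA lies at the start of both. It is shown on the strand of Col4a1 with the bases between the start sites in capitals, from RefSeq (GRCm38.p6).
Col4a1 and Col4a2 start sites, chr8:11312801-11312830, minus strand: ccccTTGGAGACGCCGCCCGCGCACTgccg

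Both genes of that pair rose in parental cells. Col4a1 rose 1.52-fold (log2 fold change 0.60, SE 0.21, adjusted p = 0.0157, mean 92.3) and Col4a2 rose 1.94-fold (0.95, SE 0.29, adjusted p = 0.00427, mean 35.4). In clone 2 they had 0.36 and 0.31, and in clone 9 they had 0.24 and −0.19, none of which was called. The annotation places the antisense gene Gm15418 over the last 2 kb of Col4a1. Of the uncalled genes given with values, Itga4, Col9a3 and Col4a3 also have a gene of the opposite strand there. These are Cerkl, Tcfl5 and C430014B12Rik in that order, so reads may be mixed in these genes too, as for Itga9. The window of 300 bases around the Col4a1 start held 74% G and C with 37 CpG pairs, against medians of 52.7% and 7 over 32851 windows.

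Col4a4, a chain of the type IV collagen of glomerular basement membrane, fell to 0.488 of the control level in parental cells (−1.04, SE 0.36, adjusted p = 0.0134) and to 0.385 in clone 9 (−1.38, SE 0.38, adjusted p = 0.00194). In clone 2 it had 0.17 (SE 0.41). Its mean was 21.1, and it is the called gene with a guide seed site. Col4a3, its neighbour and trimer partner, had 0.21 (SE 0.82), 1.82 (SE 0.95) and −0.35 (SE 0.81) in parental cells, clone 2 and clone 9 at a mean of 3.97. Col4a5, the third chain of that trimer, had 0.37, −0.26 and 0.26 at a mean of 33.8. Neither partner was called.

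Col15a1, a basement membrane collagen whose end fragment is known as restin, rose 1.93-fold in parental cells (0.95, SE 0.33, adjusted p = 0.0148). It had 0.67 (SE 0.33) in clone 2 and 0.83 (SE 0.38) in clone 9, with unadjusted p of 0.0447 and 0.0313, and neither passed after adjustment. Col5a1, a chain of the type V collagen that sets the width of fibrils, had 0.46, 0.29 and 0.38 and was not called, with a mean of 64.1. Altogether 3 collagens rose and 3 fell of 21 tested in parental cells. In clone 2 it was 0 and 2 of 24, and in clone 9 it was 1 and 2 of 24. Called in either direction were 28.6%, 8.33% and 12.5% of the collagens tested, below the 36.5%, 29.2% and 28.1% of all genes in each line. Low counts enter this comparison, since the median mean normalized count of the 24 collagens tested in at least 1 line was 17.3. Only 3 collagens had a mean of 50 or more, of which 1 rose and 1 fell in parental cells, too few to compare with all genes at that level. No collagen rose in clone 2 by the DESeq2 adjusted p, where 3 had positive estimates with an unadjusted p under 0.05 (Col15a1, Col8a1 and Col14a1, the last 2 chosen after their values were seen).

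**Figure D3:**
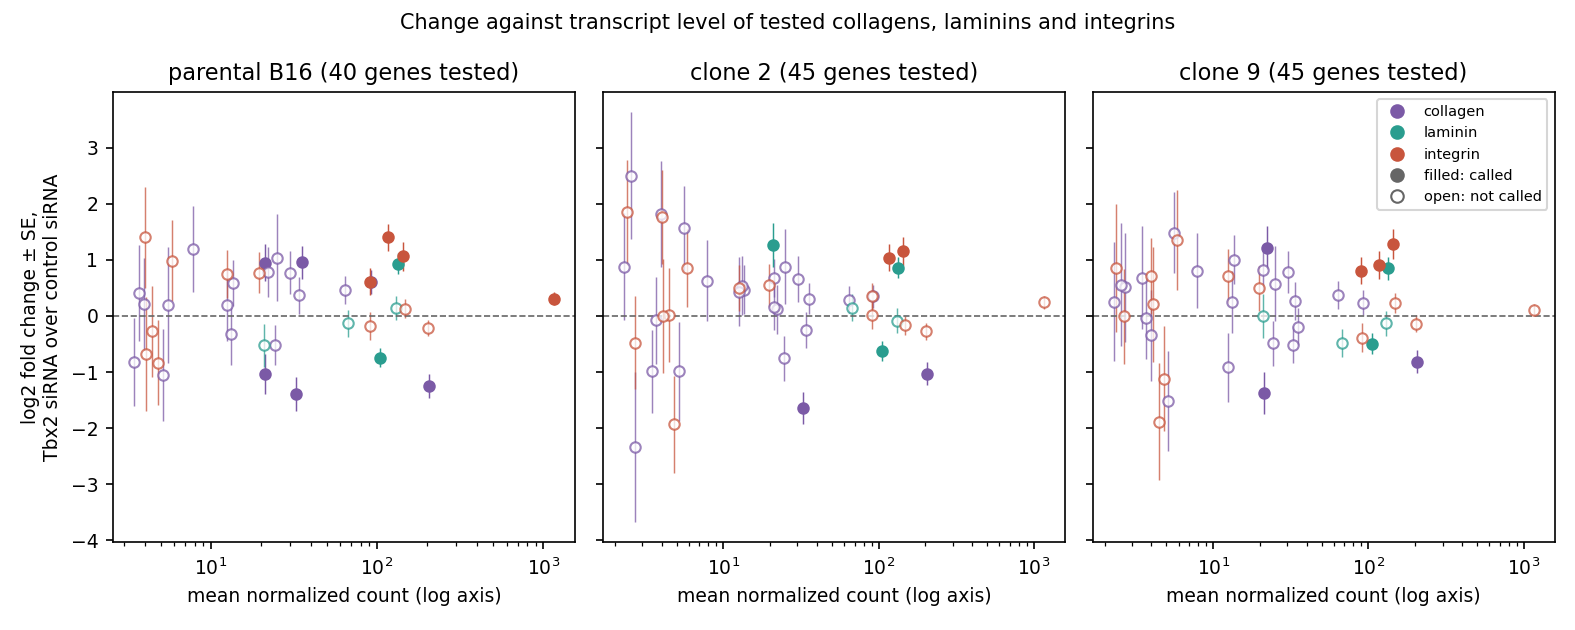
Log2 fold change of Tbx2 siRNA over control siRNA, with its standard error, against the mean normalized count on a log axis, for the 40 genes tested in parental B16 and the 45 tested in each clone, coloured by family and filled where called. All called genes have a mean of 20.9 or more, and the error bars widen toward the low counts at the left.

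Most genes without a call were measured too thinly to place a limit of use on their change. The 28 uncalled genes of parental cells had a median SE of 0.74 where the mean was under 50 (22 genes) and 0.23 where it was 50 or more (6 genes). In clone 2 the medians were 0.72 and 0.21, and in clone 9 they were 0.68 and 0.23. With a mean of 50 or more, the 95% interval of every uncalled gene lay within −1 and 1 on the log2 scale in its line. Under 50 this held for 1 of 22 genes in parental cells, 4 of 29 in clone 2 and 3 of 29 in clone 9. The 36 genes with no adjusted p had means below the level at which the tables begin to give one (2.83 in parental cells, 2.11 in the clones). They include 6 type VI collagen chains and the leukocyte integrins Itgal, Itgam, Itgax, Itgad and Itgb2. A further 5, Col11a2, Itga3, Col14a1, Itgae and Col23a1, had an adjusted p in the clones but not in parental cells.

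A call in one line and none in another does not show that the lines differ, so the difference itself was tested. The log2 fold changes of each pair of lines were subtracted, divided by the root of their summed squared SEs and adjusted by Benjamini-Hochberg over all genes. No gene of the set passed in any pair, against 0%, 0% and 0.00832% of all genes for parental minus clone 2, parental minus clone 9 and clone 2 minus clone 9. Without adjustment, p was under 0.05 for 2 of 40, 1 of 40 and 3 of 45 genes of the set, against 3.54%, 3.76% and 6.6% of all genes.

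The genes with an unadjusted p under 0.05 were low in count. Lama5 had a difference of −1.79 (95% interval −2.87 to −0.71) between parental cells and clone 2 and of 1.27 (0.19 to 2.35) between clone 2 and clone 9. Col4a4 had −1.20 (−2.27 to −0.14) between parental cells and clone 2 and 1.54 (0.45 to 2.64) between clone 2 and clone 9. The second of these had the smallest adjusted p of the set, 0.439. Col4a2 had 1.15 (0.28 to 2.01) between parental cells and clone 9. Col9a1 had −1.13 (−2.00 to −0.26) between clone 2 and clone 9. Of these 6 differences, 5 involve clone 2, and Lama5 and Col4a4 each enter both pairs with the same clone 2 estimate. Over all genes, the unadjusted p was under 0.05 for 411 genes in parental minus clone 2 and 793 in clone 2 minus clone 9. It was under 0.05 for 437 in parental minus clone 9.

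For the genes called in all 3 lines the estimated differences from parental cells lay between −0.43 and 0.49, with intervals that still allow a sizable one. Itgb3 differed by −0.09 (−0.80 to 0.63) between parental cells and clone 2 and by −0.22 (−0.94 to 0.51) between parental cells and clone 9. Lamc1 differed by 0.07 (−0.46 to 0.59) and 0.08 (−0.45 to 0.62) in the same pairs. Itga9 differed by 0.36 (−0.29 to 1.01) and 0.49 (−0.17 to 1.16), and Col16a1 by −0.22 (SE 0.30) and −0.43 (SE 0.29). Lamb2 differed by −0.11 (−0.60 to 0.37) and −0.25 (−0.75 to 0.25).

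**Figure D4:**
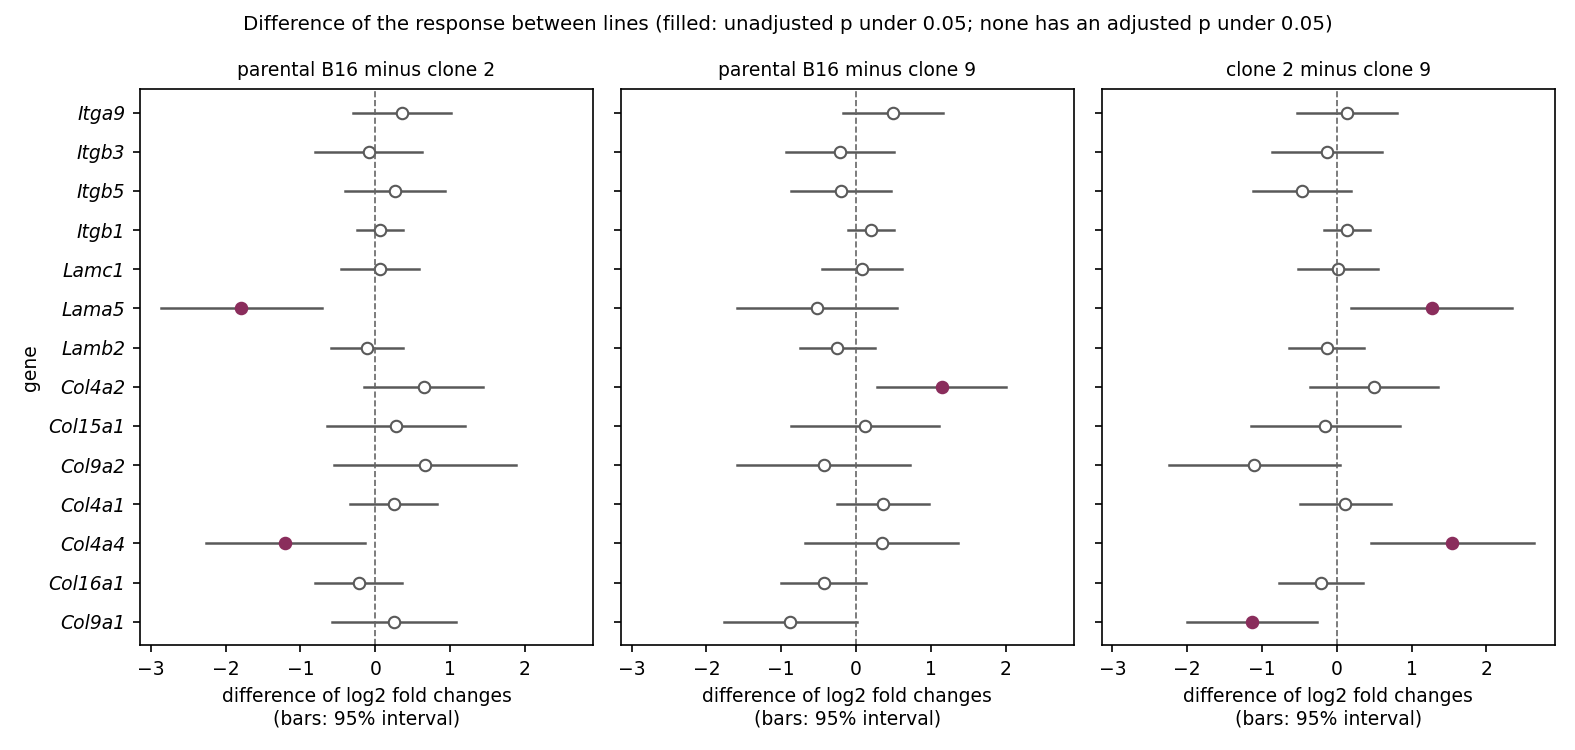
Difference of the log2 fold changes between lines (first line minus second) with 95% intervals for the 14 called genes, in 3 panels for parental B16 minus clone 2, parental B16 minus clone 9 and clone 2 minus clone 9. Filled points have an unadjusted p under 0.05, 6 in all, and no gene passed after adjustment over all genes.

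Promoter windows of RefSeq (250 bases before to 50 after a start site, GRCm38.p6) were found for 58 of the 81 genes, among them 12 of the 14 called. They were searched on both strands for the T-element AGGTGTGA bound by T-box factors, for its core GTGTGA and for the E-box CACGTG. The full T-element was in 0 of the 58 genes and in 1.48% of 27025 genes, and the E-box was in 0 of the 58 and in 8.09%. The core was in 7 of the 58, or 12.1%, against 16.4% of all genes. Of the called genes Col9a1 and Col9a2 held it, at −31 and −127 from the start site, and these are shown with the core in capitals, in the second on the opposite strand.
Col9a1, chr1:24177567-24177596, plus strand: gtccctccttcaGTGTGAccttgttagttt
Col9a2, chr4:121039427-121039456, plus strand: gacttctgctctTCACACagaaagtagtcc

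A match of these letters describes the window and is no evidence of binding, and windows this short leave out most of a gene's regulatory DNA.

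Genes that act with these families were called in both directions. Of the enzymes and chaperones of collagen maturation, 19, 21 and 21 of 30 were tested in parental cells, clone 2 and clone 9, of which 4, 3 and 4 rose and 4, 3 and 3 fell. That is 42.1%, 28.6% and 33.3% called, against 36.5%, 29.2% and 28.1% of all genes. The median log2 fold changes were 0.19, 0.12 and 0.12. Pcolce, which speeds the removal of the C-terminal propeptide of fibrillar collagens, fell in all 3 lines with log2 fold changes of −1.49 (SE 0.21), −1.49 (SE 0.22) and −1.06 (SE 0.23). P4hb, a disulfide isomerase and a subunit of prolyl 4-hydroxylase, fell in all 3 lines, with −0.58, −0.51 and −0.45, with SEs of 0.12 to 0.13. Plod2, a lysyl hydroxylase of collagen crosslinks, rose in parental cells (0.66, SE 0.19) and clone 9 (0.79, SE 0.19), with 0.30 in clone 2. P4ha2, a catalytic subunit of prolyl 4-hydroxylase, fell in parental cells (−0.85, SE 0.27) and clone 9 (−0.76, SE 0.27), with −0.43 in clone 2.

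Of 40 other matrix glycoproteins and proteoglycans, 19 were tested in each line, with 2, 3 and 3 up and 4, 3 and 3 down. That is 31.6% called in each line, against 36.5%, 29.2% and 28.1% of all genes. The medians of this list were −0.12, −0.09 and −0.13. Ctgf, a matricellular protein that binds integrins, rose in all 3 lines by 1.58 (SE 0.50), 1.27 (SE 0.50) and 1.21 (SE 0.49). Fbln5, a fibulin of elastic fibres, rose by 0.64, 0.61 and 0.48, with SEs of 0.18. Fbln1, another fibulin, fell in parental cells (−0.85, SE 0.22) and clone 9 (−0.75, SE 0.25), with −0.21 in clone 2. Hspg2, the basement membrane proteoglycan perlecan, fell in parental cells alone by the test (−0.59, SE 0.24), with −0.30 and −0.38 in clones 2 and 9.

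Of 40 adaptors that join integrins to actin and signalling, 33, 34 and 34 were tested, with 3, 3 and 2 up and 8, 11 and 11 down, or 33.3%, 41.2% and 38.2% called, against 36.5%, 29.2% and 28.1% of all genes. The share that fell was 24.2%, 32.4% and 32.4%, against 18%, 14.2% and 14.7% of all genes. Most adaptors tested had a mean of 50 or more, and of all genes at that level 23.3%, 19.1% and 20.6% fell. The share of adaptors that fell was thus near that background in parental cells and above it in the clones, which is a description only. The medians of the adaptors were −0.26, −0.23 and −0.20. Lims1 encodes PINCH1, part of the complex with the integrin-linked kinase and a parvin, and it fell in all 3 lines, with log2 fold changes of −1.80 (SE 0.20), −1.64 (SE 0.20) and −1.48 (SE 0.20). Lims2, the related PINCH2, fell in each line too, with −2.42, −2.32 and −2.13 and SEs of 0.74 to 0.76. Vcl, vinculin, fell with −1.04 (SE 0.20), −1.25 (SE 0.20) and −1.13 (SE 0.21). Parvb, the β parvin, rose by 0.70, 0.56 and 0.36, with SEs of 0.13.

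Of 25 other matrix receptors and partners of integrins, 22 were tested in each line, with 3, 2 and 3 up and 6, 5 and 5 down. That is 40.9%, 31.8% and 36.4% called, against 36.5%, 29.2% and 28.1% of all genes. The medians of this list were −0.25, −0.17 and −0.01. The syndecans are transmembrane heparan sulfate proteoglycans. Those that were called moved in opposite directions, and another of the list was not called in any line. Sdc2 rose by 1.42 (SE 0.16), 0.98 (SE 0.16) and 0.97 (SE 0.17), while Sdc1 fell with −1.25, −1.15 and −1.25 and SEs of 0.20 to 0.21. Sdc3 fell in parental cells (−0.82) and clone 2 (−0.81), with −0.45 in clone 9. Hmmr, a hyaluronan receptor that also acts at the mitotic spindle, fell with −1.26, −0.68 and −1.45 and SEs of 0.19 to 0.21.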

How the data were processed

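RNA of B16 mouse melanoma cells was sequenced from 3′ ends (QuantSeq) in 27 samples, 3 for each of 9 conditions, and samples were grouped by the labelled line and siRNA. Per the submitters' processing notes, the authors used FastQC 0.11.7, STAR 2.6.1d with mm10, featureCounts of Subread 1.6.2 and DESeq2 1.28.1. The deposited signal is the authors' mean normalized count after size factors. The deposited log2 fold change and SE are the authors' fit, and the deposited score is their Wald statistic. The deposited p-value and adjusted p are the authors' own, the adjusted p being absent below their filter on low means. These columns are the authors' own comparison and no counts per library were used here, so nothing was fitted again and precision rests on the SEs. Each table has 23512 entries, of which 92 spike-in transcripts were left out and 27 are names turned into dates.

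Computed here, with Python 3.11.15, pandas 2.3.3 and scipy 1.17.1, were counts over the gene set, normal 95% intervals, and z tests of differences between lines (11620, 11620 and 12022 genes, repeated date-like names entered once). Alternatives were an adjusted p of 0.01, adjustment over all genes that have a p, a mean of at least 50, a test against a change of 0.5 and centring. The 12 list and marker symbols not in the tables were each matched through a RefSeq synonym. The gene set and the lists were chosen with earlier results of these data known, and the lists are not independent evidence. Named genes are those called in any line, uncalled ones with a mean of 50 or more or that are partners of a called gene, and up to 4 called genes of each list by change in parental cells with a mean of 50 or more. Some items of the gene set are counted but not reported here by name.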

Additional observations from a re-analysis of the deposited data

How the results depend on the processing

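With an adjusted p under 0.01 the genes that rose in parental cells numbered 4 instead of 8 (Itgb3, Lamc1, Itga9 and Col4a2), and with a mean of 50 or more those that fell there numbered 2 instead of 4 (Col16a1 and Lamb2). Tested against a change of 0.5 in place of 0 (z test from the deposited SE), 1 rose (Itga9) and 2 fell (Col16a1 and Col9a1) in parental cells, 0 rose and 1 fell (Col9a1) in clone 2, and 1 rose (Itgb3) and 0 fell in clone 9. Before adjustment 5 rises in clone 2 and 1 fall in clone 9 had p under 0.05 in that test. Adjustment over all genes that have a p ended the calls of Itgb5 in parental cells and Lamb2 in clone 9 and left the other counts as they were. Centring on the median changed no call among 42 values of the 14 called genes. The count of genes that differ between lines stayed at 0 in the 6 alternatives run. No paired analysis was possible because the tables hold no value per library, and leaving out a replicate, another normalization and the replicate block were not run for the same reason. Depth limits what can be said of genes with a mean under 50.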
